A study of Mus musculus with 12 samples.

Results

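The 7 genes described here, E2f1, E2f2, E2f3, E2f7, E2f8, Mybl2 and Foxm1, encode transcription factors that drive or brake the cell cycle. They were taken by symbol from a table of raw RNA-seq counts with 23337 gene rows, and all 7 were present and passed the filter on low counts, which left 12406 genes for testing. The libraries came from NU1, a line of normal mouse urothelial cells (the epithelium lining the bladder) that became immortal on serial passage. Lentiviral short hairpin RNAs were used: the control cells, labelled WT, carried the hairpin shNT, and the Stag2 knockdown cells carried a single hairpin, sh4. STAG2 belongs to cohesin, which keeps sister chromatids together and shapes chromatin loops. Proliferating cultures grew in complete medium containing EGF. Quiescent cultures were grown to confluence and then kept in complete medium with 1 µM rosiglitazone, an agonist of PPARγ, and 0.5 µM erlotinib, an inhibitor of the EGF receptor kinase, and were harvested at day 7 of differentiation. Each of the 4 combinations of hairpin and state had 3 libraries, 1 from each of the experiments numbered 5, 7 and 9, which the labels also give as separate batches. Quiescent and proliferating cultures differed in density, drugs and time together, so these cannot be told apart, and the knockdown rests on 1 hairpin in 1 line.

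E2F1, E2F2 and E2F3 are the activator E2Fs. With a DP partner they bind promoters of genes for S phase entry, and in resting cells the retinoblastoma protein holds them inactive. E2F7 and E2F8, the atypical E2Fs, bind the same sites without a DP partner and repress them late in S phase. B-MYB, encoded by Mybl2, joins the MuvB core to switch on genes of late S phase and mitosis, and FOXM1 is recruited to the same genes in G2. In resting cells the MuvB core instead sits with p130 (Rbl2) or p107 (Rbl1), a repressor E2F and DP in the DREAM complex, which keeps cell cycle genes off. The genes of most of these factors are themselves targets of E2F or DREAM, through E2F sites or through CHR elements that often lie near a CCAAT box. The series title concerns cooperation between STAG2 and DREAM in keeping urothelium quiescent.

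Promoter sequence is shown for 3 members chosen by annotation and not by level. For each, a RefSeq start is also the outer end of the GENCODE gene model, with a motif match upstream of it. The transcripts of E2f8 and E2f7 fell steeply in quiescence, and E2f3 changed least. Each line gives the bases just upstream of the RefSeq start site (GRCm38.p6), 5′ to 3′ on the strand of the gene, with capitals marking matches to an E2F motif, a CHR motif or a CCAAT box.
E2f8, chr7:48881597-48881728, minus strand: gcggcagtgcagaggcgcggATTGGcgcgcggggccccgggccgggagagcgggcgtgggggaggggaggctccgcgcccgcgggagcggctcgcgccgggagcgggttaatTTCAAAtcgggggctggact
E2f7, chr10:110745221-110745438, plus strand: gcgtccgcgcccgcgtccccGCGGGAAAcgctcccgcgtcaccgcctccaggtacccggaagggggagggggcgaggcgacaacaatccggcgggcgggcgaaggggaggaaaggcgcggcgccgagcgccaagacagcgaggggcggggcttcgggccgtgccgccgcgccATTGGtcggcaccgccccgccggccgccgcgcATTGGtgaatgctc
E2f3, chr13:29986064-29986228, minus strand: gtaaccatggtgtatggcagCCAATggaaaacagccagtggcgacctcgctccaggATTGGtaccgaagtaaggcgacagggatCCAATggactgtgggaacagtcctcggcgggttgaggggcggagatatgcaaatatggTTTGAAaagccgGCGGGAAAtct

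The motifs searched on both strands were TTTCCCGC, TTTCGCGC, TTTGCCGC and TTTGGCGC for E2F, TTTGAA and TTCGAA for CHR, and CCAAT, and no matches overlapped in the windows of the members. Among 32851 RefSeq windows running from 250 bases before to 50 after a start, 2.26% held an E2F match, 19.2% a CHR match and 37.4% a CCAAT match. E2f8 had a CHR match at positions -20 to -15 and a reversed CCAAT box at -112 to -108, with no E2F match. In E2f7 an E2F match lay at -198 to -191 and reversed CCAAT boxes at -46 to -42 and -14 to -10. The E2f3 stretch held the same E2F letters as E2f7, GCGGGAAA, at -11 to -4, a CHR match at -23 to -18 and 3 CCAAT boxes. Of the E2f2 windows, 1 held the E2F word TTTGGCGC at 40 to 47 after the start, and the other a CHR match at -31 to -26. The windows of E2f1 and Mybl2 and the other E2f3 window held none of these letters, which says only that they are not in those windows. Foxm1 had no entry.

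The knockdown was checked first on Stag2 itself. Stag2 levels in CPM, read counts scaled to a common library size, were 139, 145 and 113 in proliferating control libraries of experiments 5, 7 and 9 and 33.3, 24.9 and 24.6 in the proliferating knockdown. They were 128, 126 and 107 in quiescent control and 9.43, 15.3 and 11.7 in quiescent knockdown libraries. Knockdown and control did not overlap in either state. The fall was 4.80-fold in proliferating cells (log2 -2.26, SE 0.19, edgeR quasi-likelihood adjusted p = 0.00121) and 9.96-fold in quiescent cells (log2 -3.32, SE 0.20, adjusted p = 3.39e-05). Library totals ran from 14524429 to 21987539 counts. The least deep library was quiescent control of experiment 5, and the deepest was quiescent knockdown of the same experiment. Of 17 urothelial and epithelial markers, 11 or 12 averaged over 1 CPM in each group, but Trp63, which marks basal urothelium, was at 0 in every library, and Upk3a, a uroplakin of superficial cells, was at 0 in all groups but the quiescent knockdown. The summed level of these markers was 12351 to 19335 CPM in quiescent control and 21449 to 23360 CPM in quiescent knockdown. Fibroblast and smooth muscle markers summed to at most 2.27 CPM and endothelial and immune markers to at most 9.66 CPM in any library.

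In control cells 6 of the 7 genes fell in quiescence, by 4.19-fold for E2f1 to 27.9-fold for E2f8, with E2f2 down to 3 reads in all, while E2f3 kept most of its level. The 6 passed the edgeR quasi-likelihood test at an adjusted p of 0.05, where 11.7% of all tested genes were called lower and 8.33% higher. These are bulk libraries, so fewer cycling cells and less transcript per cell cannot be told apart. The same 6 were called, and E2f3 was not, in each of 12 fits that left out 1 library, in control and in knockdown cells alike.

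Among the activators, E2f1 (chr2:154559407-154569892, GRCm38, GENCODE annotation) had 22.3, 17.8 and 18.8 CPM in proliferating control libraries of experiments 5, 7 and 9 and 5.52, 3.12 and 5.43 CPM in quiescent control. Every proliferating library lay above every quiescent library. The means were 19.7 ± 2.36 and 4.69 ± 1.36 CPM (SD, n = 3 each), so quiescent control kept 23.9% of the proliferating level (log2 -2.07, SE 0.22, adjusted p = 0.000138).

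E2f2 (chr4:136172394-136196057) was the scarcest of the 7, with 91, 88 and 49 reads in the proliferating control libraries and 1, 2 and 0 in quiescent control. In CPM the proliferating level was 4.32 ± 1.33 (SD, n = 3). With 228 reads against 3, the ratio of depth-scaled counts was 68.6, with a 95% exact Poisson interval of 23.2 to 335 that covers counting error only. The test called E2f2 lower (adjusted p = 0.000337), and its fitted log2 change of -5.94 depends on the prior count. In experiment 9, where no read was seen in quiescence, 3 reads would correspond to 6.43% of the proliferating level.

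E2f3 (chr13:29906575-29986063) behaved differently in size. Its levels were 31.4, 40.2 and 54.2 CPM in proliferating control and 28.8, 26.6 and 41.4 CPM in quiescent control, and the ranges overlapped. Each quiescent library was nevertheless below its proliferating partner from the same experiment, by 0.12, 0.60 and 0.39 on the log2 scale. The quiescent mean was 76.9% of the proliferating one, and the difference did not pass the test (log2 -0.38, SE 0.24, adjusted p = 0.287). With the experiment as a replicate block it did (log2 -0.37, SE 0.12, adjusted p = 0.0339), in a fit that called all 7 members and 18.5% of all tested genes lower. That call was lost without any 1 of 5 libraries: proliferating control 7 or 9, proliferating knockdown 9, or quiescent control 7 or 9 (adjusted p of 0.131, 0.123, 0.0543, 0.174 and 0.0753).

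Both atypical E2Fs fell in quiescent control cells. E2f7 (chr10:110745439-110787384) had 27.7, 36.9 and 34.3 CPM in proliferating control and 1.04, 3.00 and 2.09 CPM in quiescent control, a 16.0-fold fall (log2 -4.00, SE 0.45, adjusted p = 0.00021). E2f8 (chr7:48866429-48881596) went from 34.4, 42.7 and 45.1 CPM to 0.621, 1.96 and 1.73 CPM, a 27.9-fold fall (log2 -4.80, SE 0.52, adjusted p = 0.000172). The quiescent control of experiment 5 was the lowest library for both genes. Quiescent control cells thus kept 6.19% of the E2f7 level and 3.53% of the E2f8 level.

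Mybl2 (chr2:163054687-163084688) fell 25.6-fold, from 25.3, 40.8 and 30.9 CPM in proliferating control to 0.897, 1.59 and 1.25 CPM in quiescent control (log2 -4.68, SE 0.49, adjusted p = 0.000132). Foxm1 (chr6:128362967-128376146) had 52.9, 76.4 and 91.2 CPM in proliferating control and 3.04, 5.87 and 7.87 CPM in quiescent control, a 13.1-fold fall (log2 -3.71, SE 0.48, adjusted p = 0.000494). Experiment 5 was lowest and experiment 9 highest for Foxm1 in both states, while the states stayed far apart in every experiment.

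**Figure D1:**
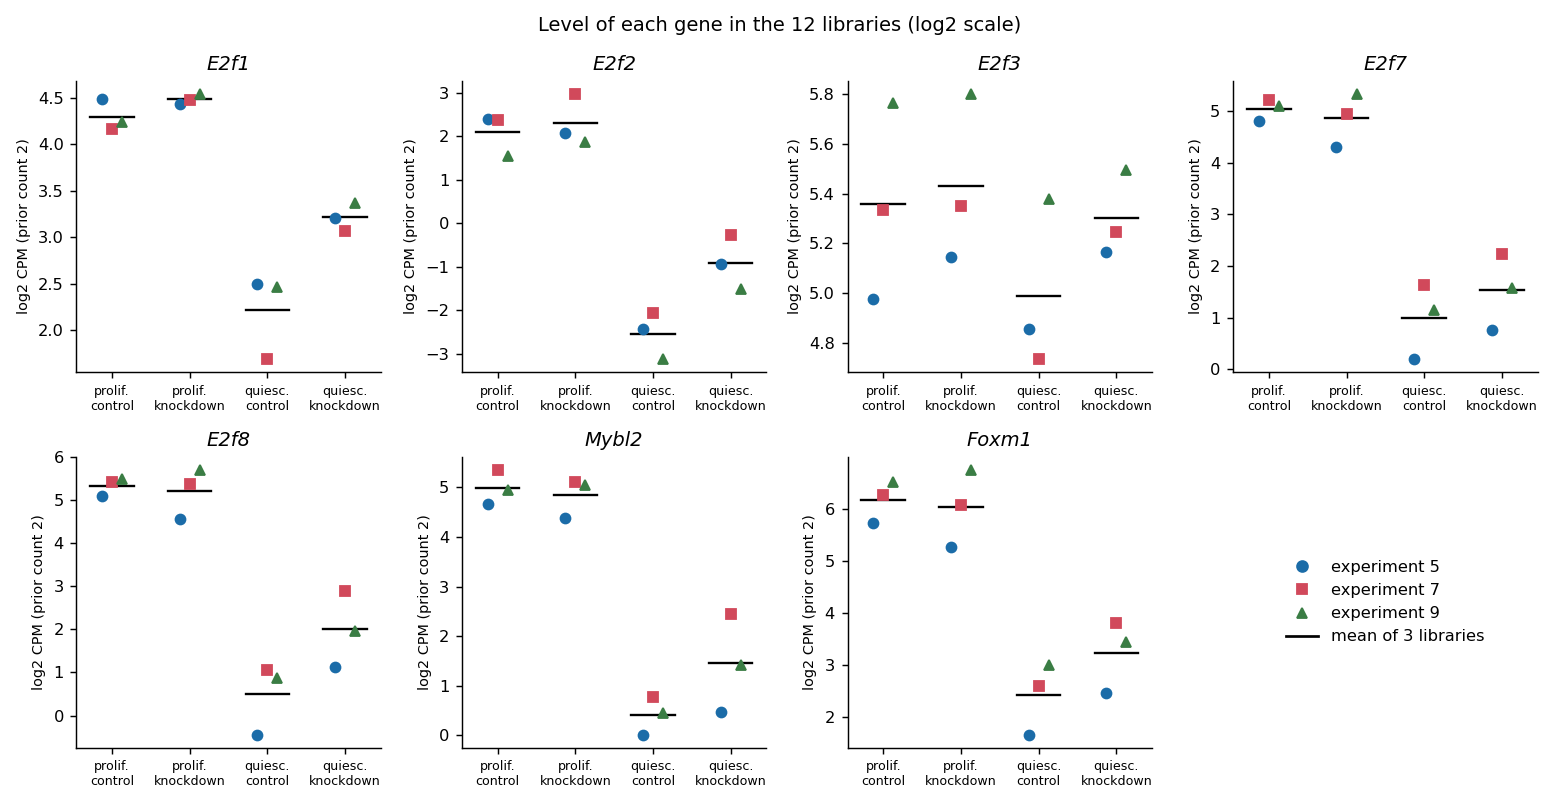
Level of each of the 7 genes in the 12 libraries, on a log2 CPM axis with a prior count of 2. Points are libraries, coloured and shaped by experiment, and bars are means of 3. For 6 genes the quiescent libraries all lie below the proliferating ones; for E2f3, plotted over a much narrower axis, all neighbouring groups overlap.

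In the Stag2 knockdown cells the same 6 genes were called lower in quiescence, against 10.8% of all tested genes, and with the block 6 again, against 17.2%. E2f1 fell 2.41-fold (log2 -1.27, SE 0.21, adjusted p = 0.00231) and E2f2 11.2-fold (log2 -3.48, SE 0.56, adjusted p = 0.00216). The atypical pair fell 10.0-fold (E2f7, log2 -3.32, SE 0.43, adjusted p = 0.000823) and 8.95-fold (E2f8, log2 -3.16, SE 0.47, adjusted p = 0.00141). Falls of 9.67-fold for Mybl2 (adjusted p = 0.000993) and 7.15-fold for Foxm1 (adjusted p = 0.00214) completed the set. E2f3 stayed at 90.2% of its proliferating level (log2 -0.15, SE 0.24, adjusted p = 0.703) and was higher in quiescence by 0.018 on the log2 scale in experiment 5 and lower in experiments 7 and 9.

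The share of the proliferating level that remained in quiescence was larger in knockdown than in control cells for all 7 genes. It was 41.4% against 23.9% for E2f1, 11.3% against 3.53% for E2f8, 10.4% against 3.86% for Mybl2 and 14.0% against 7.61% for Foxm1. E2f7 had the closest shares of the 6 lowered genes, 10.1% against 6.19%. For E2f2 the shares were 8.86% and 1.48%, the latter resting on 3 reads. The test of this difference is given below with the interaction.

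**Figure D2:**
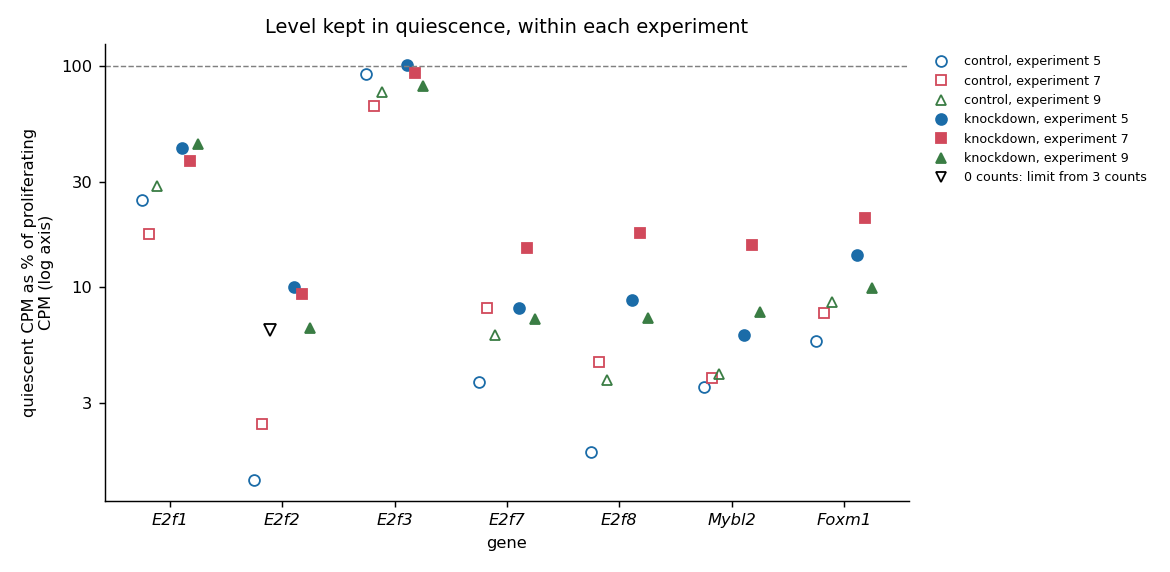
Quiescent CPM as a percentage of proliferating CPM in the same experiment, on a log axis, for control (open symbols) and knockdown (filled symbols) cells. The dashed line marks 100%, and the open triangle is the limit that 3 reads set for E2f2 in experiment 9 (6.43%). Filled symbols lie above the open symbol of the same experiment for every gene with a value in both.

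In proliferating cells no member passed the test for the knockdown. The edgeR test called 0 of 7, with 0.0242% of all tested genes called in either direction both without and with the block. At an unadjusted p under 0.05 it was again 0 of 7, against 1.84% of all genes, and DESeq2 also called 0. Control and knockdown ranges overlapped for every gene. E2f1 had 21.6, 22.2 and 23.1 CPM in the proliferating knockdown of experiments 5, 7 and 9, a mean of 22.3 ± 0.787 (SD, n = 3) against 19.7 ± 2.36 in control (log2 0.18, SE 0.20, adjusted p = 0.9998).

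Foxm1 shows how the experiments differed among themselves. It had 38.3, 66.8 and 107 CPM in the proliferating knockdown, lower than control by 0.47 and 0.19 on the log2 scale in experiments 5 and 7 and higher by 0.23 in experiment 9. Its fitted difference was -0.05 (SE 0.42). E2f7 and E2f8 had the same order of signs, with 19.7, 30.4 and 39.9 CPM and 23.7, 41.8 and 52.1 CPM in the proliferating knockdown. Fitted log2 differences were 0.24 for E2f2, 0.06 for E2f3, -0.14 for E2f7, -0.05 for E2f8 and -0.13 for Mybl2, with standard errors of 0.24 to 0.49. The members were higher in the knockdown in 1, 3 and 7 of 7 cases in experiments 5, 7 and 9. In the same experiments the median of 40 G2 and M phase target genes differed by -0.55, -0.22 and 0.19, and the part of this shift in the members' values was not tested.

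In quiescent cells every member was higher in the knockdown than in the control library of the same experiment, in 3 of 3 experiments for all 7 genes. Of all tested genes, 25.4% were higher in all 3 experiments. The activators E2f1 and E2f2 and the atypical E2f8 had no overlap between the 3 control and 3 knockdown libraries, a pattern found in 10.2% of all tested genes. The edgeR test without a block called 0 of 7 after adjustment, where 0.153% of all genes were called higher, and 4 of 7 at an unadjusted p under 0.05 (E2f1, E2f2, E2f8 and Mybl2), where 6.04% of all genes were. With the experiment as a block it called E2f1, E2f2 and E2f8 higher, 3 of 7 against 1.59% of all genes, and 6 of 7 at an unadjusted p under 0.05, against 10.9%. DESeq2 without a block called E2f1 and E2f8, 2 of 7. It called 390 of all tested genes in either direction, where edgeR without a block called 54.

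E2f1 had 9.16, 8.29 and 10.3 CPM in quiescent knockdown libraries, against 5.52, 3.12 and 5.43 CPM in quiescent control. The lowest knockdown library exceeded the highest control library. The difference was 1.97-fold (log2 0.98, SE 0.21, adjusted p = 0.0785; with the block log2 0.99, SE 0.18, adjusted p = 0.0206). The call with the block was lost without quiescent control 7 (log2 0.79, adjusted p = 0.0715), quiescent control 9 (adjusted p = 0.0641) or quiescent knockdown 9 (adjusted p = 0.0786).

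E2f2 had 9, 12 and 4 reads in the quiescent knockdown, against 1, 2 and 0 in the control. The groups did not overlap, but the ratio of depth-scaled counts, 7.10, had a 95% exact Poisson interval of 2.17 to 36.7 for counting error alone. Its adjusted p was 0.171 without and 0.0386 with the block. That call held in only 4 of 12 fits that left out 1 library, those without any 1 of the proliferating controls or without proliferating knockdown 5, and the adjusted p reached 0.114 without quiescent control 9. E2f3 had 35.8, 37.9 and 45.0 CPM in the quiescent knockdown, overlapping the control range, and was higher by 0.31, 0.51 and 0.12 on the log2 scale within experiments (fitted 0.29, SE 0.24, adjusted p = 0.707; with the block 0.170).

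Of the atypical E2Fs, E2f8 had the larger fitted difference. E2f8 had 2.09, 7.34 and 3.81 CPM in the quiescent knockdown, all above the highest control value of 1.96. That was a 3.00-fold difference (log2 1.59, SE 0.50, adjusted p = 0.22; with the block log2 1.57, SE 0.33, adjusted p = 0.0322). It was lost without any 1 of the quiescent controls 5, 7 and 9 (adjusted p of 0.098, 0.101 and 0.114), quiescent knockdown 7 (log2 1.12, adjusted p = 0.0536) or quiescent knockdown 9 (adjusted p = 0.0617). E2f7 had 1.59, 4.59 and 2.87 CPM, overlapping the control range of 1.04 to 3.00. Its fitted difference was 0.54 (SE 0.44, adjusted p = 0.701; with the block 0.309), with 0.56, 0.60 and 0.44 within experiments 5, 7 and 9. Left-out libraries moved the fitted value, to 0.11 without quiescent knockdown 7, 0.23 without quiescent control 5, 0.86 without quiescent knockdown 5 and 0.91 without quiescent control 7. Whether E2f8 and E2f7 responded differently was not tested.

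Mybl2 had 1.27, 5.37 and 2.58 CPM in quiescent knockdown libraries, and only that of experiment 5 fell within the control range of 0.897 to 1.59. The difference was 2.42-fold (log2 1.27, SE 0.47, adjusted p = 0.306; with the block 0.0527), and with the block it was 0.76 without quiescent knockdown 7. Foxm1 had 5.35, 13.8 and 10.7 CPM against 3.04, 5.87 and 7.87 CPM in control, overlapping, with a fitted difference of 0.81 (SE 0.46, adjusted p = 0.537; with the block 0.0565). Of 12 edgeR fits with the block that left out 1 library, 1 called Mybl2 (without quiescent knockdown 5, adjusted p = 0.033) and 1 called Foxm1 (without proliferating control 5, adjusted p = 0.0477).

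The experiments contributed unequally. Over the 7 members the median difference within experiments 5, 7 and 9 was 0.72, 1.38 and 0.90 on the log2 scale. For the 40 G2 and M phase targets, none of them a member, it was 0.37, 1.70 and 0.11, and for the 40 G1 and S phase targets 0.51, 0.60 and 0.33. All 7 members likewise had their largest difference in experiment 7, Mybl2 for example with 0.45, 1.68 and 0.98. Of the 3 genes called with the block, E2f2 had the closest values, 1.504, 1.80 and 1.60 on the log2 scale. They rest on 1, 2 and 0 reads in quiescent control and a prior count of 2, which shrinks such low counts. Their closeness therefore says little about how even the experiments were for E2f2. The part of the higher G2 and M phase level of experiment 7 in the members' values was not tested.

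**Figure D3:**
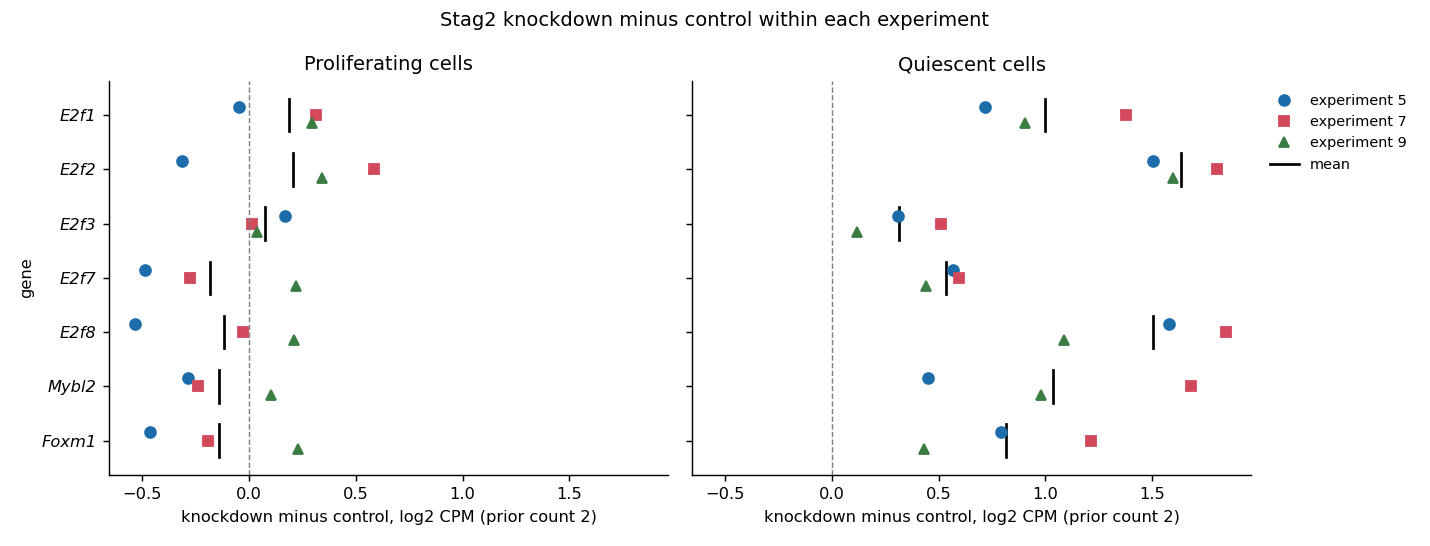
Difference in log2 CPM (prior count 2) between Stag2 knockdown and control within each experiment, in proliferating (left) and quiescent (right) cells; bars are means of 3. In quiescent cells all 21 points lie above 0, from 0.12 for E2f3 to 1.85 for E2f8, while in proliferating cells points lie on both sides of 0.

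The interaction asks whether the knockdown difference was larger in quiescent than in proliferating cells; it uses the quiescent libraries already described. The edgeR test called 0 of 7 after adjustment, and 0% of all tested genes, both without and with the block, and DESeq2 called 0 of 7. At an unadjusted p under 0.05 it was larger in quiescence for E2f1, E2f2, E2f8 and Mybl2, 4 of 7 against 1.04% of all genes, and with the block also for Foxm1, 5 of 7 against 2.64%. The fitted log2 values were 0.80 for E2f1 (SE 0.29), 2.46 for E2f2 (SE 0.91), 0.23 for E2f3 (SE 0.34), 0.68 for E2f7 (SE 0.58), 1.64 for E2f8 (SE 0.65), 1.41 for Mybl2 (SE 0.61) and 0.87 for Foxm1 (SE 0.62), and adjusted p was 0.9997 for each. All 7 were positive in all 3 experiments, as were 16.4% of all tested genes. The smallest adjusted p with the block was 0.662, for E2f8.

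Mean levels were ordered alike for all 7 genes: quiescent control lowest, quiescent knockdown next, and both proliferating groups highest with overlapping ranges. The step from quiescent knockdown to the proliferating groups was free of overlap for 6 of them, all but E2f3. The first step overlapped for E2f7, Mybl2 and Foxm1. For E2f3 every neighbour in this order overlapped.

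Because the genes differ in length, levels between genes were compared per kilobase of exon. On that scale E2f3 made up 41.6% to 60.4% of the summed activator E2F level in proliferating control libraries, with E2f1 at 36.1% to 50.9%. In quiescent control E2f3 made up 75.1% to 82.8%, above every proliferating library, with a mean of 79.8% ± 4.17 against 51.5% ± 9.47 (SD, n = 3). The counts are per gene and E2f3 has more than 1 RefSeq start. Which E2f3 transcript made up this share was therefore not told apart. The quiescent knockdown lay between, at 68.8% to 71.5%, without overlap with the quiescent control. Shares within a library do not depend on how libraries are scaled. An exact permutation test of 3 against 3 libraries that ignores the experiments cannot go below a two-sided p of 0.1. A permutation test that keeps the pairing by experiment cannot go even that low.

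The balance of atypical to activator E2F transcripts shifted as well. E2f7 and E2f8 together had 0.676 to 0.846 of the summed activator level in proliferating control and 0.0324 to 0.117 of it in quiescent control. On this scale the activator level thus exceeded the atypical one in every control library, and by more in quiescence. Each length was the union of all annotated exons of the gene. With other lengths the order in proliferating libraries could differ. Quiescent knockdown libraries had 0.0584, 0.191 and 0.0879 in experiments 5, 7 and 9, higher than the control library of the same experiment in each but with overlapping ranges. Proliferating knockdown libraries averaged 0.638 ± 0.158 (SD, n = 3).

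**Figure D4:**
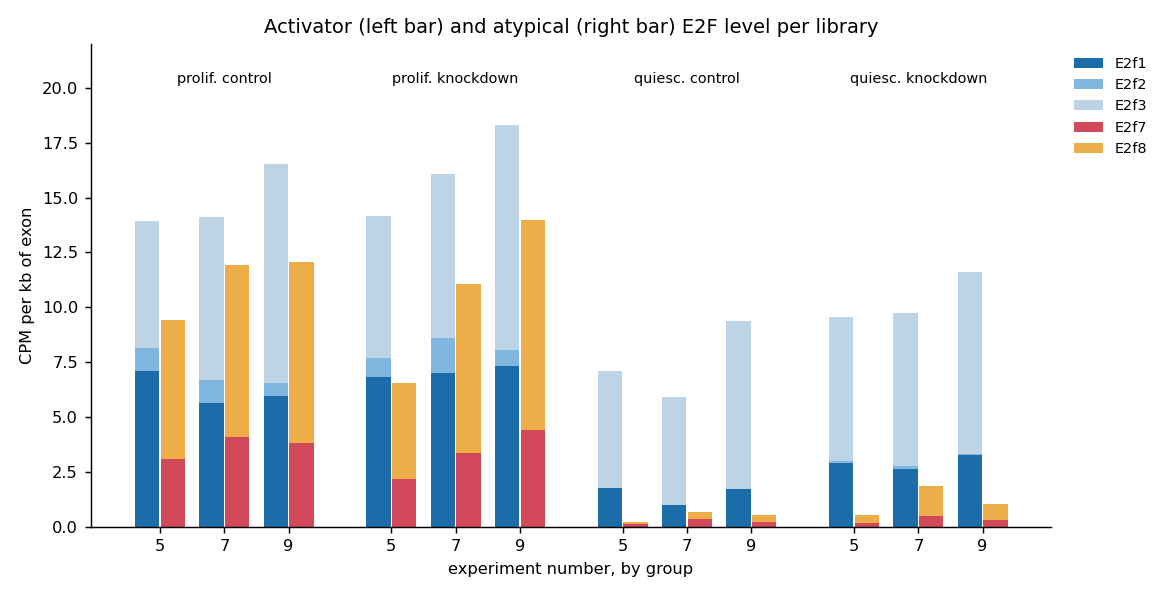
Stacked level of the activator E2Fs (left bar: E2f1, E2f2, E2f3) and the atypical E2Fs (right bar: E2f7, E2f8) in each library, in CPM per kilobase of exon. In quiescence the left bars consist mostly of E2f3 (75.1% to 82.8% in control) and the right bars nearly vanish.

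Partners of the members were followed in the same fits. Of 8 repressor E2F, DP and pocket protein genes, 3 fell in quiescent control cells and none rose, with a list median of -0.56 against 0.00 for all tested genes. Rbl1, which encodes p107 and is itself a known E2F target, fell by 2.17 on the log2 scale (SE 0.21, adjusted p = 8.18e-05), Tfdp1, the main DP subunit, by 1.07 (adjusted p = 0.00446) and E2f4, the E2F of DREAM, by 0.67 (adjusted p = 0.0151). The values of the others were -0.45 for E2f5, -0.69 for E2f6, -0.23 for Tfdp2, 0.10 for Rb1 and 0.44 for Rbl2. With the block E2f5 and E2f6 were also called lower and Rbl2, the p130 gene, higher (log2 0.47, adjusted p = 0.0475). Rbl2 had 42.0 ± 12.05 CPM in proliferating and 56.9 ± 4.51 CPM in quiescent control (SD, n = 3).

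Among 7 genes of the MuvB core and the Myb family, 3 fell in quiescent control cells. Myb, the family's founding member, fell by 3.52 on the log2 scale (SE 0.64, adjusted p = 0.00335) from a low level of 2.71 ± 0.655 CPM (SD, n = 3), and the MuvB subunits Lin9 and Lin54, the latter the one that contacts DNA, fell by 1.27 (adjusted p = 0.0025) and 1.15 (adjusted p = 0.0169). Lin37 was at 0.46, Lin52 at 0.00, Rbbp4 at -0.40 and Mybl1 at -0.60, none past the threshold, though the block called Lin37 higher (adjusted p = 0.0331) and Rbbp4 lower (adjusted p = 0.0247). In knockdown cells the same count, 3 of 8 and 3 of 7, fell in quiescence. For the Stag2 knockdown 0 genes of either list were called in either state by edgeR with or without the block or by DESeq2. Without a call, Rbl2 had 40.1 to 50.2 CPM in quiescent knockdown and 52.5 to 61.6 CPM in quiescent control libraries. E2f5 went the other way, with 13.9 to 15.6 CPM in quiescent knockdown and 10.6 to 11.5 CPM in quiescent control. Of all tested genes, 10.2% had every quiescent knockdown library above every quiescent control library. The share in the lower direction, that of Rbl2, was not counted. Both genes were named here after their values were seen. At an unadjusted p under 0.05 the first list had 1 gene higher in quiescent cells (E2f5, log2 0.40, SE 0.18), with medians of 0.14 and 0.07 for the lists and 0.02 for all tested genes.

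Of 15 genes that act on the members or their partners (G1 cyclins and kinases, Skp2, Fzr1, Melk, Plk1 and Chek1 among them), 11 fell in quiescent control cells and 1 rose. Ccna2, encoding cyclin A2, fell most, by 4.99 on the log2 scale (SE 0.81, adjusted p = 0.00186). Ccnd2, encoding cyclin D2, rose by 0.80 (SE 0.24, adjusted p = 0.0386), from 379 ± 53.5 to 659 ± 204 CPM (SD, n = 3). In quiescent cells 1 of the 15 was higher in the knockdown, Ccne2, encoding cyclin E2, whose mean was 2.44 ± 0.319 CPM against 0.299 ± 0.0996 CPM (SD, n = 3; log2 3.01, SE 0.35, adjusted p = 0.0053). The block added Chek1 (log2 1.297, adjusted p = 0.00471) and Ccnd3 (log2 0.79, adjusted p = 0.0343), both named after their values were seen.

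All 40 genes of the G1 and S phase list, known targets of E2F, fell in quiescent control cells, with a median of -2.66; Clspn, encoding the replication checkpoint adaptor claspin, fell most, by 5.38 (SE 0.74, adjusted p = 0.000694). In quiescent cells the knockdown raised 3 of the 40, Ccne2, Mcm5 (log2 1.497, adjusted p = 0.0451) and Dtl (log2 1.37, adjusted p = 0.0296), the latter 2 named after their values were seen, with a list median of 0.50. That count was 8 with the block and 7 by DESeq2, and fell to 1 without proliferating control 7, proliferating knockdown 7, quiescent knockdown 9 or any of the quiescent controls. At an unadjusted p under 0.05, 20 of the 40 were higher and 0 lower without the block, and 26 higher and 1 lower with it. By the same measure the interaction was larger in quiescence for 18 of the 40 without the block and 23 with it. Higher levels in the quiescent knockdown were thus not particular to the members. Ccne1 and Ccne2 stand in both this list and the previous one.

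Of the 40 G2 and M phase genes, known targets of B-MYB with MuvB and of FOXM1, 39 fell in quiescent control cells with a median of -4.34, led by Top2a, encoding topoisomerase II alpha (log2 -5.39, SE 0.76, adjusted p = 0.000821). Pttg1, encoding securin, rose by 0.63 (SE 0.15, adjusted p = 0.0121), from 15.8 ± 1.47 to 24.4 ± 3.00 CPM (SD, n = 3). In quiescent cells the list median of the knockdown difference was 0.81 against 0.50 for the G1 and S phase list, and it was the larger of the pair in experiment 7 only (1.70 against 0.60, with 0.37 against 0.51 in experiment 5 and 0.11 against 0.33 in experiment 9). The edgeR test called 0 of the 40 with or without the block, and DESeq2 called 1. At an unadjusted p under 0.05, 3 were higher and 1 lower without the block. With the block 16 were higher and 1 lower. Of all tested genes, 6.04% were higher without the block and 10.9% with it. Top2a had 1.52 to 14.5 CPM in quiescent control and 7.21 to 41.2 CPM in quiescent knockdown libraries. In proliferating cells 0 genes of these last 3 lists were called by edgeR or DESeq2, and 1 of each list stood at an unadjusted p under 0.05. Ccna2, Ccnf and Plk1 are in both the regulator list and this one.

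The members' profiles over the 12 libraries were compared with those of all other tested genes, each centred on its own mean, by the root-mean-square difference in log2 CPM; libraries of one experiment share their batch, so this is a description. E2f1 was nearest to Cyp3a13, a cytochrome P450 gene (0.24), and Gins2, a subunit of the replicative helicase (0.27). E2f2 lay nearest to Uhrf1 (0.44) and Mcm5 (0.45), at a larger distance than any other member from its nearest genes. E2f3 had Smcr7l and Gtf2h1 (0.13 each) as neighbours, which like E2f3 varied little.

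For the other members the nearest genes were shared in part. E2f7 was closest to Cdca2 (0.22) and the kinetochore gene Nsl1 (0.27), and Foxm1 to Cdca3 (0.19) and Nsl1 (0.19). E2f8 was closest to 5730590G19Rik (0.19) and Ercc6l (0.23), and Mybl2 to Ercc6l (0.25) and Sgol1, the gene of shugoshin, which protects centromeric cohesin (0.26). Among the members themselves the nearest pairs were E2f8 with Mybl2 (0.30), E2f7 with Mybl2 (0.32) and E2f7 with Foxm1 (0.33), and the farthest were E2f2 and E2f3 (2.01). Among the activators, E2f1 and E2f3 were each other's nearest member, at 0.81. E2f2 differed from E2f1 by 1.29 and was nearest to Mybl2 (0.58).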

How the data were processed

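The deposited file holds raw counts of reads per gene, whole numbers that the authors made from poly(A) RNA libraries (stranded TruSeq kit with ERCC spike-in, per the labels' protocols). The submitters' processing notes name Bowtie, TopHat, HTSeq and DESeq2 and the build mm10. Versions, the gene annotation and whether counting used strand are not given in the sources used here. E2f3, E2f7 and E2f8 overlap the opposite-strand genes Gm11365, 1700020G17Rik (0 counts) and Gm2788, and Foxm1 overlaps Tex52 and Gm44596 on its own strand, so some of their reads cannot be assigned with certainty.

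Counts were tested in R 4.3.3 with edgeR 4.0.16 (filterByExpr with a minimum count of 10, TMM scaling, quasi-likelihood test, Benjamini-Hochberg adjustment over the 12406 tested genes, threshold 0.05), with 4 groups in 1 fit and no block. CPM uses TMM-scaled totals. The fit was tested on simulated data with no effect of experiment and with changes only in well-counted genes. That test does not bear on calls that hinge on the block or on few reads. The experiment numbers pair the libraries: the labels give each as a batch, and deviations from group means correlated at 0.225 to 0.789 over 18 same-experiment pairs, so a fit with the experiment as a replicate block is given where it changes a call. No 2 libraries were identical, and replicates differed beyond counting noise. Nothing states how cultures were separated within an experiment, so p-values measure the spread between these libraries. Alternatives were DESeq2 1.42.0, median-of-ratios scaling, other filters, fits on the compared libraries alone and leaving out each library.

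The members and lists were chosen with earlier results of these data known. Named genes were the 7 members, Stag2, every gene of the first 2 lists, the gene with the largest called change in each direction of each list and comparison, and 2 nearest profiles per member. Promoter windows came from RefSeq (6 of 7 members matched) and gene models from GENCODE on GRCm38. Intervals and limits for counts cover counting error only.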

Additional observations from a re-analysis of the deposited data

How the results depend on the processing

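Over the 7 genes, the 6 falls in quiescence kept their direction under every alternative and their call under every one with a test, in both control and knockdown cells; E2f2 was not tested where a mean count of at least 50 was asked. The counts that moved were those of the weaker comparisons. In quiescent cells the number of members called for the knockdown was 0 in the main analysis, 3 with the replicate block and 2 by DESeq2. It was 5 by DESeq2 with the block, and 0 to 4 by edgeR with the block when 1 library was left out. These last alternatives were added after the data were seen. No count over all tested genes was made for them, so the members' counts there have no background share beside them. Over all tested genes, the knockdown called 54 in quiescent cells (440 with the replicate block, 390 by DESeq2, 5 to 64 without 1 library) and 3 in proliferating cells (12 by DESeq2, 1 on the compared libraries alone, 1 to 3 without 1 library). Quiescence called 2481 in control cells (4374 with the block, 1582 on the compared libraries alone, 1394 to 3078 without 1 library) and 2279 in knockdown cells (4096 with the block, 1186 to 2408 without 1 library); the interaction called 0, and 6 by DESeq2. Signs turned only when a library was left out, and only for values within their error. For the knockdown in proliferating cells the log2 difference then ran from -0.18 to 0.44 for E2f2, -0.15 to 0.29 for E2f3, -0.40 to 0.092 for E2f7, -0.32 to 0.20 for E2f8, -0.28 to 0.068 for Mybl2 and -0.49 to 0.24 for Foxm1. For E2f3 it ran from -0.28 to 0.058 for quiescence in knockdown cells and from -8.46e-05 to 0.45 for the interaction. Within-experiment means of log2 CPM gave smaller changes for E2f2 (-4.64 in control and -3.21 in knockdown quiescence, 1.64 for the knockdown in quiescent cells, 1.43 for the interaction), as its few reads are shrunk by the prior count. Depth limits E2f2, with 0 to 2 reads in each quiescent control library.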
